A study of Mus musculus with 4 samples.

Results

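The TNF, lymphotoxin and death ligand system was described across 4 bulk RNA libraries of mouse T cells through 10 named genes of the 50600 in the count tables. The genes were chosen by name, with earlier results of these data known. They were the ligands Tnf, Lta, Ltb, Fasl and Tnfsf10, and the receptors Tnfrsf1a, Tnfrsf1b, Ltbr, Fas and Tnfrsf10b. All 10 were found by symbol. The cells were primary T cells of strain C57BL/6NJ, and the labels number the libraries as biological replicates 1 to 4 of a single group with no treatment or control named. Sex was not collected and age is unknown per the labels. The headers of the count tables name all 4 samples mmTh0, bulk activated cells at 72 h, and the labels link a differentiation protocol for CD4+ T cells. The question that such a design can answer is which of these genes the cells expressed, at what level, and how far the replicates differed.

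TNF family ligands are made as membrane proteins that act as trimers, and several are cut from the surface by proteases. TNF signals through TNFR1 (Tnfrsf1a), which carries a death domain and can drive either NF-kappaB or cell death, and through TNFR2 (Tnfrsf1b), which lacks a death domain. Lymphotoxin alpha (Lta) forms a secreted trimer that binds the TNF receptors, and joins lymphotoxin beta (Ltb) in a membrane complex that binds the lymphotoxin beta receptor (Ltbr), a receptor best known on stromal and myeloid cells of lymphoid organs. Fas ligand (Fasl) and TRAIL (Tnfsf10) trigger apoptosis through the death domain receptors Fas and, in the mouse, Tnfrsf10b. Fas ligand on activated T cells is known for its part in activation-induced cell death.

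Levels are given in TPM, the count per length of exon scaled to the same total in every library, and errors are SD over the 4 libraries unless stated. A gene was called detected when it reached 1 TPM in every library. Library totals ran from 49613182 to 94222415 counts. The T-cell marker list summed to between 8290.5 and 8646 TPM per library and all 10 of its genes were detected, among them Cd3e, a chain of the T-cell receptor complex, at 272 ± 15.5 TPM. Of 42 markers of CD8 and gamma-delta T cells and of other cell types, 7 were detected. The labels give all libraries one donor identifier, whereas Xist stood at 332 and 150.1 TPM in replicates 1 and 2 and at 0.877 and 0.392 TPM in replicates 3 and 4, and the Y-linked gene Ddx3y had 3, 7, 3546 and 6620 counts in replicates 1 to 4. The libraries thus differed in sex-linked transcripts under one donor identifier.

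All 10 genes of the system were detected, beside 49.4% of all 21764 protein-coding genes. Their median level was 82.8 TPM, beside 34.8 TPM for the detected protein-coding genes. The ligands together held 879 ± 82.3 TPM and the receptors 262 ± 12.4 TPM, and summed ligand exceeded summed receptor transcript 2.93- to 3.76-fold within a library. Tnf, Lta and Ltbr were higher, and Tnfrsf1a, Tnfrsf1b and Tnfrsf10b lower, in each of replicates 1 and 2 than in each of replicates 3 and 4, the division that Xist showed. These are 6 of the 10 genes, beside 30.8% of detected protein-coding genes. Exact Poisson 95% intervals, which cover counting error only, stayed apart across that division for Lta alone among the 6. For Tnf, Ltbr, Tnfrsf1a, Tnfrsf1b and Tnfrsf10b, intervals of some libraries on opposite sides overlapped. The division was added after seeing the data and no other division was counted. Its part in the levels of the 6 genes was not tested. In bulk RNA, fewer cells expressing a gene and less transcript per cell cannot be told apart.

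**Figure D1:**
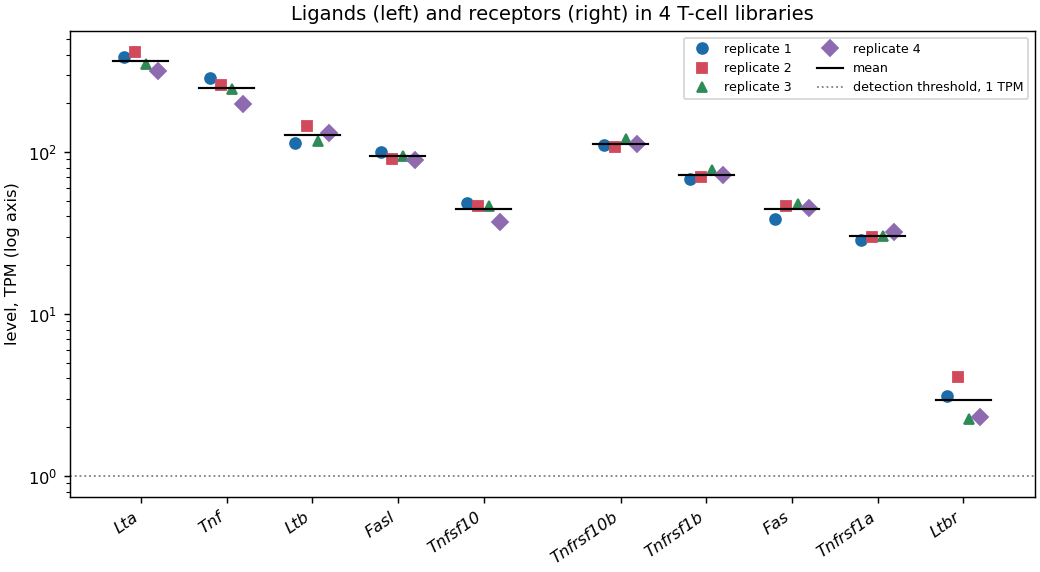
Level of each gene in TPM on a log axis, ligands on the left and receptors on the right, with 1 symbol per library and a line at the mean of the 4. Lta stands at the top at 366 TPM and Ltbr at the bottom at 2.95 TPM, and the dotted line marks the detection threshold of 1 TPM.

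The most abundant of the 10 genes were the TNF and lymphotoxin ligands of chromosome 17. Lta, which encodes lymphotoxin alpha (ENSMUSG00000024402, mm10, chromosome 17, 35203165 to 35205351, minus strand), measured 386, 413, 350.5 and 317 TPM in replicates 1 to 4, from 8950, 9215, 6751 and 12174 counts. Its mean of 366 ± 41.7 TPM exceeded that of 98.1% of protein-coding genes. Tnf (ENSMUSG00000024401, mm10, chromosome 17, 35199381 to 35202007, minus strand) encodes the founding cytokine of the family. It had 288, 258, 246 and 199 TPM, with replicate 1 highest and replicate 4 lowest. Ltb, the membrane partner of lymphotoxin alpha (ENSMUSG00000024399, mm10, chromosome 17, 35194439 to 35196320, plus strand), stood at 114, 144, 117 and 132 TPM. Its order over the libraries differed from that of Tnf, with replicate 2 highest and replicate 1 lowest. The ranges of the 3 ligand genes did not overlap. Of their summed TPM, Lta took 49.4 ± 0.813%, Tnf 33.4 ± 2.68% and Ltb 17.2 ± 2.46%. The share of Lta stayed between 48.95 and 50.6% while that of Tnf ran from 30.7 to 36.6%. These shares depend on the gene length used, which the SD does not cover. The summed exons of Ltb are 1.31 times its principal transcript, while for Tnf and Lta the lengths are equal. With principal transcript lengths, added after seeing the data, Lta, Tnf and Ltb had means of 257, 173 and 116 TPM. Tnf minus Ltb in log2(TPM + 1) was then 0.57, against 0.96 with summed exons.

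The 3 genes lie side by side, with 3060 bases between Ltb and Tnf and 1157 bases between Tnf and Lta. Tnf and Lta are read in the same direction and Ltb in the other. Their upstream sequences are shown because these neighbours, read from separate starts, differed in level within every library. The sequences are RefSeq's (GRCm38.p6), 5′ to 3′ on the strand of the gene, from 250 bases before the RefSeq start to the base before it. That of Ltb stops at the last base before the GENCODE gene, which begins 68 bases ahead of the RefSeq start. Capitals mark 2 motifs, the frame that NF-kappaB sites share (GGG, any 5 bases, CC, on either strand) and the TATA box letters TATAAA (either strand).
Tnf, chr17:35202008-35202257, minus strand: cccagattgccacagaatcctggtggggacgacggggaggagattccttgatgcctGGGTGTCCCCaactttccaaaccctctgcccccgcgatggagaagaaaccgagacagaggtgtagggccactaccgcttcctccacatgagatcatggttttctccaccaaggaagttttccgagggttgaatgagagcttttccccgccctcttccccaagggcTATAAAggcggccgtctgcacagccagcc
Lta, chr17:35205352-35205601, minus strand: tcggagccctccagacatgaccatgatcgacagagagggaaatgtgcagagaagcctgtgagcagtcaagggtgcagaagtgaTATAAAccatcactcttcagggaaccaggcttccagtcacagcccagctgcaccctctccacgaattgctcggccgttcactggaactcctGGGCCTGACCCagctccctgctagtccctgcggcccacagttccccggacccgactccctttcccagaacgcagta
Ltb, chr17:35194257-35194438, plus strand: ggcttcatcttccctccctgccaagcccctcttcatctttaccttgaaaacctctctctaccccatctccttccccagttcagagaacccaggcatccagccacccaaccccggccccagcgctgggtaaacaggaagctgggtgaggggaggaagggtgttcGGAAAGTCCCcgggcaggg

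In the sequence upstream of Tnf, TATAAA begins 29 bases before the start, and the match GGGTGTCCCC, which reads as the frame on both strands, begins 194 bases before it. Upstream of Lta, TATAAA begins 167 bases before the start, and 2 overlapping matches to the frame, 1 on each strand, begin 76 and 75 bases before it. The match GGAAAGTCCC upstream of Ltb, on the opposite strand, begins 87 bases before the RefSeq start and also holds the NFAT core letters GGAAA. The other matches near Ltb lie past the GENCODE start and are not shown. RefSeq promoter entries were matched for 9 of the 10 genes, not for Tnfrsf10b. Within 250 bases upstream, 8 of the 9 held the NF-kappaB frame on either strand, all but Tnfsf10, a frame found in 45.8% of 32851 promoter entries, with overlapping matches allowed. TATAAA was in 2 of the 9, Tnf and Lta, and in 12.4% of entries. GGAAA on either strand was in 7 of the 9 and in 55.6% of entries. The AP-1 letters TGANTCA were in 1 of the 9, Fas, and in 6.75% of entries, and the interferon response core (GAAA, any 2 bases, GAAA, on either strand) was in 1, Tnfrsf1b, and in 2.98% of entries. These are letter matches and do not show that a factor was bound.

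Genes around the lymphotoxin cluster covered a wide range of levels. Within 50 kb of the cluster lie 8 other protein-coding genes, of which 6 were detected. Prrc2a, Ddx39b and Bag6, broadly expressed genes, stood at 495 ± 62.9, 472 ± 16.5 and 220.2 ± 14.6 TPM. The nearest gene on the Ltb side, Lst1, a leukocyte transcript of myeloid cells, stood at 3.54 ± 1.305 TPM, and Aif1, a macrophage gene beyond it, at 0.108 ± 0.107 TPM. On the Lta side Nfkbil1 stood at 55.8 ± 3.45 TPM, the vacuolar ATPase subunit gene Atp6v1g2 at 5.90 ± 1.05 TPM and Gm16181, a predicted gene, at 0.761 ± 0.901 TPM. Lta and Tnf were exceeded in mean level by Prrc2a and Ddx39b, and Ltb also by Bag6.

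A second pair of genes of the system, Tnfrsf1a and Ltbr on chromosome 6, lie 35476 bases apart, with Scnn1a between them. Tnfrsf1a and Ltbr are read away from each other. None of the 3 other protein-coding genes within 50 kb was detected. Plekhg6, the sodium channel gene Scnn1a and the tubulin gene Tuba3a had 9, 4 and 1 counts in all libraries together, the highest mean being 0.0351 TPM. Tnfrsf1a and Ltbr were the detected protein-coding genes of that window.

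**Figure D2:**
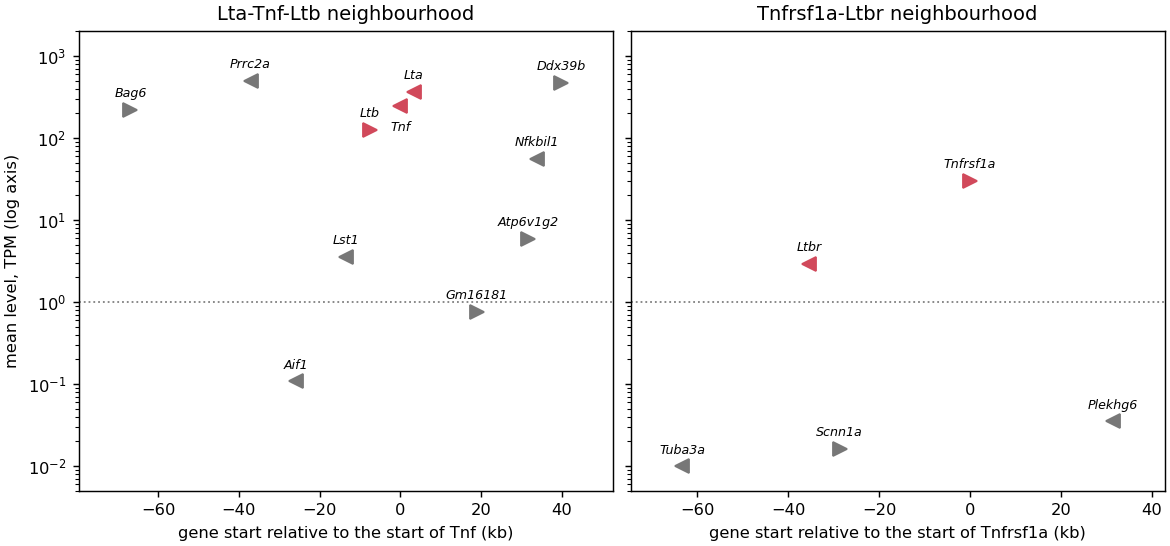
Mean level in TPM on a log axis against the start of each protein-coding gene in kb from the start of Tnf (left) or Tnfrsf1a (right), with triangles pointing in the reading direction on the plus-strand map. Genes of the system are red and their neighbours grey. Tnf, Lta and Ltb stand between 127 and 366 TPM amid neighbours from 0.108 to 495 TPM, while the 3 neighbours of Tnfrsf1a and Ltbr lie at 0.0351 TPM or lower.

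The death ligand genes stood lower than the chromosome 17 ligands. Fasl (ENSMUSG00000000817, mm10, chromosome 1, 161780689 to 161788495, minus strand) measured 100.2, 91.2, 94.7 and 89.5 TPM in replicates 1 to 4, a narrow range with a mean of 93.9 ± 4.74 TPM. Tnfsf10, encoding TRAIL (ENSMUSG00000039304, mm10, chromosome 3, 27317028 to 27342427, plus strand), stood at 48.5, 46.1, 46.7 and 37.1 TPM, with replicate 4 below the other 3. The range of Fasl lay above that of Tnfsf10, and Fasl exceeded Tnfsf10 1.98- to 2.41-fold within libraries, a mean difference of 1.06 ± 0.13 in log2(TPM + 1). Fasl held 10.7 ± 0.849% of summed ligand TPM and Tnfsf10 5.07 ± 0.313%.

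Among the receptors, the TRAIL receptor gene was the most abundant. Tnfrsf10b (ENSMUSG00000022074, mm10, chromosome 14, 69767472 to 69784403, plus strand) stood at 111, 107, 121 and 112 TPM, and took 42.9 ± 1.23% of the receptor sum. Its ligand gene Tnfsf10 stood below it in every library, at 0.332 to 0.439 times its level. The difference of Tnfsf10 minus Tnfrsf10b was -1.32 ± 0.18 on the log2 scale. This was the only one of the 5 ligand and receptor pairs compared in which the receptor transcript stood above that of its ligand in all 4 libraries.

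The death receptor gene Fas (ENSMUSG00000024778, mm10, chromosome 19, 34290659 to 34327770, plus strand) stood at 38.7, 46.7, 47.8 and 45.2 TPM, with replicate 1 below the other 3. Fasl exceeded Fas in every library, with a difference of 1.06 ± 0.19 on the log2 scale. That difference was 1.35 in replicate 1, where Fasl was highest and Fas lowest, and between 0.95 and 0.97 in the others.

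The receptor genes for TNF differed from each other. Tnfrsf1b, encoding TNFR2 (ENSMUSG00000028599, mm10, chromosome 4, 145213463 to 145246870, minus strand), measured 67.8, 69.7, 77.0 and 72.3 TPM. Tnfrsf1a, encoding the death domain receptor TNFR1 (ENSMUSG00000030341, mm10, chromosome 6, 125349362 to 125362484, plus strand), stood at 28.7, 29.7, 30.5 and 32.3 TPM. Their ranges did not overlap, and Tnfrsf1b exceeded Tnfrsf1a 2.24- to 2.53-fold, a difference of 1.22 ± 0.07 on the log2 scale. Tnf exceeded Tnfrsf1a by 2.98 ± 0.29 and Tnfrsf1b by 1.76 ± 0.27 on that scale. Both differences were smallest in replicate 4, where Tnf was lowest.

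Ltbr was the lowest of the 10 genes. It encodes the receptor of the membrane lymphotoxin complex (ENSMUSG00000030339, mm10, chromosome 6, 125306571 to 125313885, minus strand) and stood at 3.11, 4.10, 2.26 and 2.31 TPM, from 123, 156, 74 and 151 counts. Exact Poisson 95% intervals, which cover counting error only, ran from 3.48 to 4.80 TPM in replicate 2 and from 1.77 to 2.83 TPM in replicate 3, so these libraries differed by more than counting error. Its mean of 2.95 ± 0.865 TPM exceeded that of 6.19% of detected protein-coding genes. Ltb, whose product it binds, stood 35.1- to 57.01-fold higher within libraries (5.03 ± 0.26 on the log2 scale). Ltbr took 1.13 ± 0.364% of the receptor sum.

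Ordered by mean level the 10 genes ran Lta, Tnf, Ltb, Tnfrsf10b, Fasl, Tnfrsf1b, Fas, Tnfsf10, Tnfrsf1a and Ltbr. In 7 of the 9 steps the ranges of the neighbours in that order did not overlap. The exceptions were Ltb against Tnfrsf10b (difference 0.16 ± 0.21 on the log2 scale, positive in 3 of 4 libraries, exact sign-flip p = 0.375) and Fas against Tnfsf10 (0.00 ± 0.25, positive in 3 of 4 libraries, exact sign-flip p = 1), where the mean difference was smaller than its SD over libraries. The gene length used bears on both: with principal transcript lengths in place of summed exons, chosen after seeing the data, Ltb minus Tnfrsf10b was 0.55 and had one sign in all 4 libraries (adjusted exact sign-flip p = 0.133), and Fas minus Tnfsf10 was 0.20. When 1 replicate was left out, Ltb minus Tnfrsf10b ran from 0.0773 without replicate 2 to 0.23 without replicate 3. Only without replicate 3 did the libraries left share one sign. Across all 17 gene pairs compared, 15 kept one sign in all 4 libraries. They reached the smallest p that a two-sided exact sign-flip test over 4 libraries can give, 2 of 16 sign patterns (Benjamini-Hochberg adjusted p = 0.142), and the threshold of 0.05 was out of reach for every pair. Pairs that were only neighbours in the order were picked, and their direction set, by mean level in these same libraries. A positive mean difference was thus built into them, and neither their signs nor the separation of their ranges is support for the order. The p-values given here measure only the spread between these 4 libraries, which may be technical in part.

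**Figure D3:**
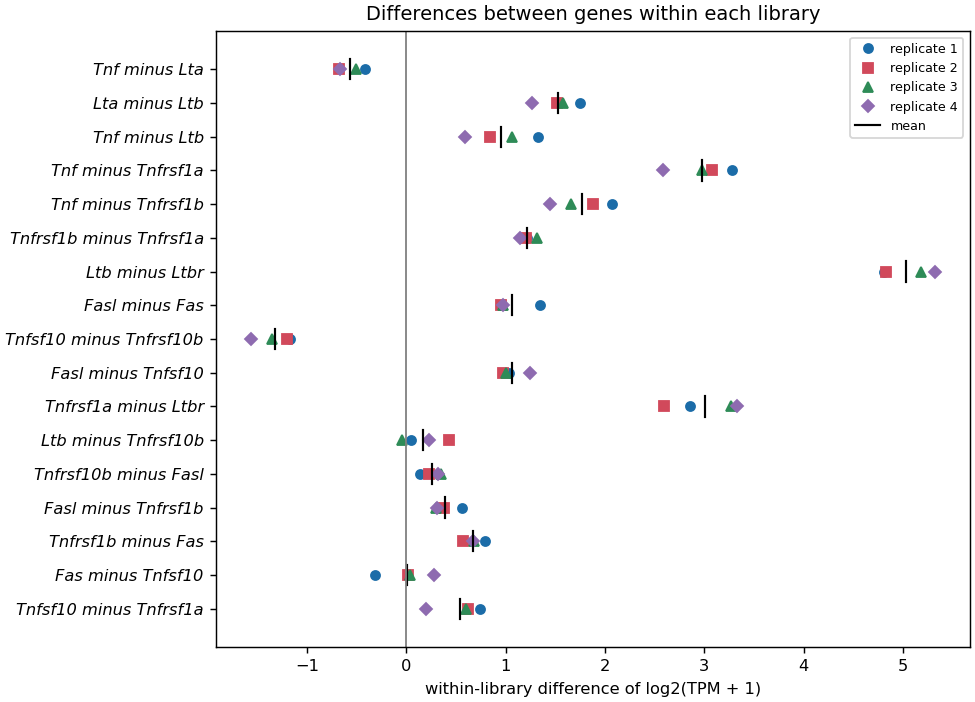
Within-library difference of log2(TPM + 1) for each of the 17 gene pairs, first gene minus second, with 1 symbol per library and a line at the mean. Ltb minus Ltbr is the largest at 5.03. Ltb minus Tnfrsf10b and Fas minus Tnfsf10 are the pairs with libraries on both sides of 0.

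Whether these genes varied between replicates by more than other genes of their abundance was tested with edgeR over 13681 genes, of which 0.687% were called. None of the 10 was called (0 of 10 by edgeR at an adjusted p under 0.05, and 0 of 10 as DESeq2 dispersion outliers). At an unadjusted p under 0.05 there were 3, Tnf, Ltb and Lta, which is 30.0% beside 7.01% of all genes tested. These 3 are the neighbours on chromosome 17. Tnf had the smallest p (unadjusted p = 0.00649, edgeR adjusted p = 0.266), with a coefficient of variation of 15.0%. Without replicate 4, where Tnf was lowest, its edgeR adjusted p was 0.9998 (0.126 to 0.9998 over all settings). Ltb followed with 10.997% (edgeR adjusted p = 0.4996) and Lta with 11.4% (edgeR adjusted p = 0.57). The median coefficient of variation was 10.1% over the 10 genes, beside 7.94% over the detected protein-coding genes and 6.73% over those of at least 20 TPM. Tnfrsf1a, Fasl, Tnfrsf10b and Tnfrsf1b lay below both of these medians at 4.97 to 5.60%, and the other 6 genes lay above both, Fas at 9.12% and Tnfsf10 at 11.5% among them. Ltbr had the highest, 29.4%, where counting error alone gives about 8.91% at its mean count, and was not called (edgeR adjusted p = 0.99994).

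**Figure D4:**
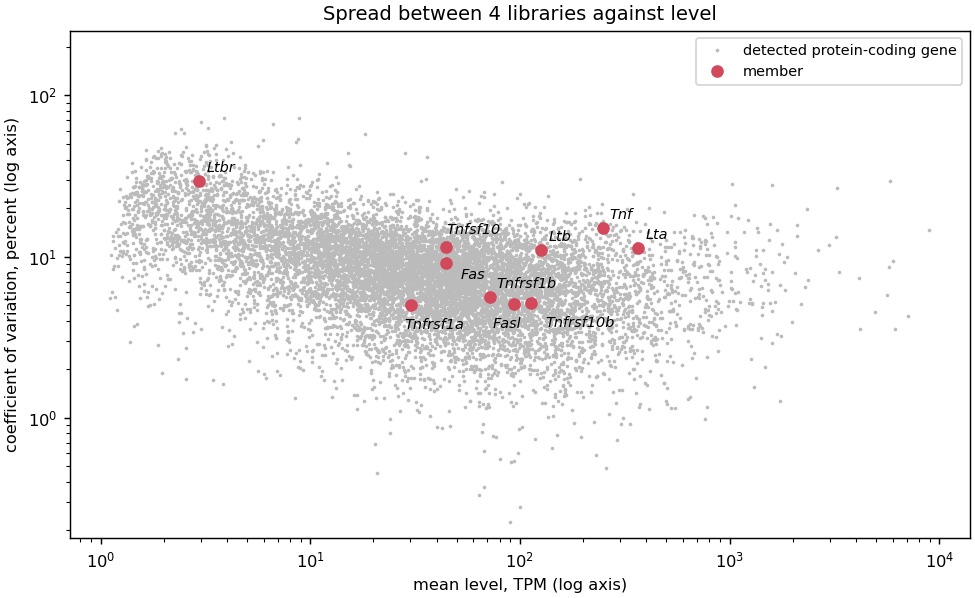
Coefficient of variation over the 4 libraries in percent against mean level in TPM, both on log axes, for 10754 detected protein-coding genes (grey) and the 10 genes of the system (red). Ltbr lies among low, variable genes at 29.4%, Tnf stands at 15.0%, and Tnfrsf1a, Fasl, Tnfrsf10b and Tnfrsf1b lie near 5%.

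Transcripts of the machinery around these ligands and receptors were present nearly in full. Of 57 distinct genes in the other pathway lists, 55 were detected (96.5%, beside 49.4% of protein-coding genes), with a median level of 43.9 TPM. Of these 55, none was called variable (0 by edgeR, 3 at an unadjusted p under 0.05, beside 7.01% of genes tested). Those 3, named after their values were seen, were Tia1, Rc3h2 and Zfp36l2 of the list for control of Tnf mRNA. Tia1 had the smallest p (unadjusted p = 0.00479, edgeR adjusted p = 0.224). The edgeR adjusted p was 0.637 for Rc3h2 and 0.678 for Zfp36l2. A link to the spread of Tnf was not tested. The 2 genes not detected were Tnfrsf11b, which encodes the secreted decoy osteoprotegerin, and the protease gene Mmp7.

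Genes that share partners with the system differed widely. Tnfsf14, encoding LIGHT, another ligand of the lymphotoxin beta receptor, stood at 136 ± 15.6 TPM and its second receptor gene Tnfrsf14 at 62.9 ± 9.07 TPM. The genes of the mouse decoy receptors for TRAIL, Tnfrsf22 and Tnfrsf23, stood at 17.1 ± 2.31 and 2.56 ± 0.441 TPM, both below Tnfrsf10b in every library. They are close paralogs, so reads shared between them can be missing from both. Osteoprotegerin, which also binds TRAIL, was at 0.106 ± 0.0730 TPM (Tnfrsf11b).

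All 21 genes of the TNFR1 signalling complex were detected, with a median of 48.7 TPM. The linear ubiquitin ligase subunit gene Rbck1 stood at 203 ± 4.70 TPM, Tnip1, a partner of the ubiquitin-editing protein A20, at 201 ± 10.2 TPM, and Otulin, which removes linear ubiquitin, at 149 ± 7.01 TPM. All 11 genes of the death signalling list were detected, with a median of 39.9 TPM. The initiator caspase gene Casp8 stood at 154 ± 3.16 TPM and Cflar, which encodes the caspase-8 inhibitor c-FLIP, at 50.03 ± 5.63 TPM.

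Below the lymphotoxin beta receptor, all 8 genes of the non-canonical NF-kappaB arm were detected although Ltbr itself was low. Nfkb2, encoding the p100 precursor, stood at 753 ± 56.2 TPM, above each of the 10 genes of the system in level. The ubiquitin ligase gene Birc3 stood at 79.6 ± 5.84 TPM and the partner subunit gene Relb at 72.3 ± 4.45 TPM. Birc3, Birc2, Traf2 and Chuk also stand in the TNFR1 list. Other receptors use this arm too, so these levels do not speak of Ltbr alone.

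Of 8 genes for shedding of ligands and receptors, 7 were detected. The protease gene Adam10 stood at 213 ± 23.2 TPM, and Adam17, which encodes the enzyme that releases TNF from the membrane, at 59.0 ± 4.95 TPM. Frmd8, which stabilises the Adam17 complex, stood at 110.5 ± 7.32 TPM, and Mmp7 at 0.0145 ± 0.0290 TPM. All 8 genes of the list for control of Tnf mRNA were detected. Zfp36l1, a relative of the AU-rich element binding protein tristetraprolin, stood at 319 ± 32.6 TPM, the RNase gene Zc3h12a at 103 ± 5.34 TPM and Zfp36l2 at 92.8 ± 13.6 TPM.

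**Figure D5:**
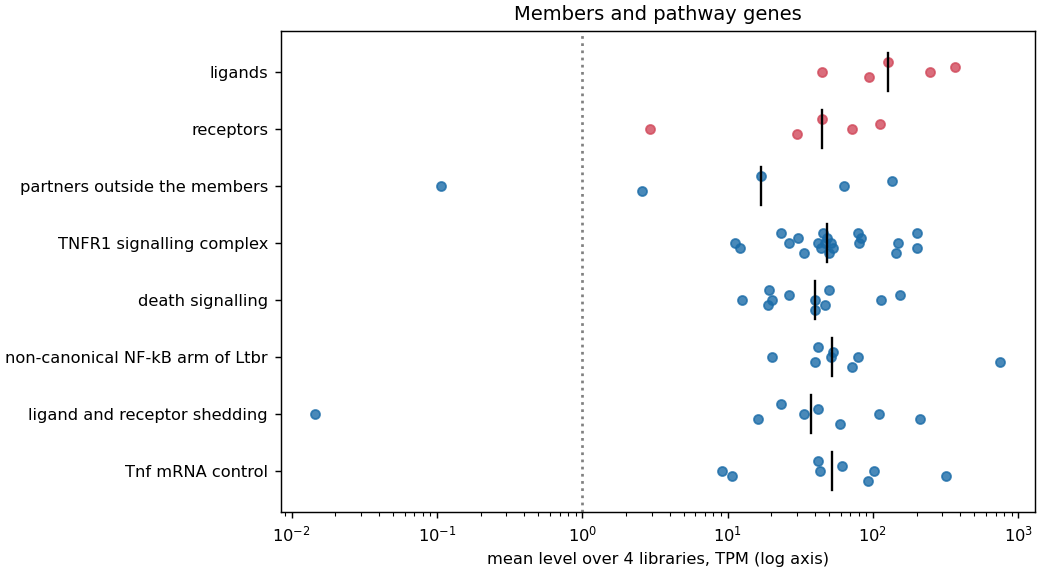
Mean level over the 4 libraries in TPM on a log axis for each gene of the system (red) and of the other pathway lists (blue), with a black line at the median of each list and a dotted line at 1 TPM. Medians of the 3 signalling lists lie between 39.9 and 52.7 TPM, and Mmp7 and Tnfrsf11b are the points left of the dotted line.

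Other cell types also make these ligands, and their markers were low. Macrophages are a main source of TNF, and the macrophage and monocyte list summed to between 12.8 and 15.4 TPM per library with 2 of 8 genes detected, Cd68 at 10.5 ± 0.880 TPM and Adgre1 at 3.21 ± 0.525 TPM. The defining genes Lyz2 and Csf1r stood at 0.0136 and 0.0147 TPM. B cells express Ltb, and the B-cell list summed to between 3.45 and 5.16 TPM with Cd79a at 0.896 ± 0.303 TPM and Cd79b, the 1 of 6 detected, at 2.55 ± 0.850 TPM. Natural killer cells carry Fas ligand and TRAIL, and their list summed to between 2.66 and 5.27 TPM, of which Eomes, also a gene of CD8 T cells, held 3.45 ± 1.08 TPM, while Ncr1 stood at 0.0619 TPM. The dendritic cell list summed to between 3.02 and 4.41 TPM with Zbtb46 at 3.35 ± 0.565 TPM and Itgax at 0.00644 TPM. Cd8a and the gamma-delta constant gene Trdc stood at 0.190 and 0.729 TPM, beside Cd8b1 at 15.8 ± 2.38 TPM. No library had a count of S100a8, a neutrophil gene, which 3 counts would place at 0.310 TPM or less, and Col1a1 of fibroblasts stood at 0.807 TPM beside Pdgfrb at 3.30 ± 0.191 TPM. The part of such cells in the levels of the 10 genes was not tested.

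Likeness of level was measured as the root mean square difference of log2(TPM + 1) over the 4 libraries, among protein-coding genes outside the 10. Nearest to Lta were Rilpl2 (0.09) and Brk1 (0.10), and nearest to Tnf were Hnrnpa3 and Mat2a (0.12 each). Ltb was nearest to Mrpl43 and Adh5, Fasl to Lsm12 and Trim59, and Tnfsf10 to Mmgt1 and Crk. Tnfrsf10b was nearest to Nup107 and Ap1b1, Tnfrsf1b to Rbm15b and Stk40, Fas to St3gal2 and Srprb, Tnfrsf1a to Yipf2 and Tesk1, and Ltbr to Rnf227 and Egr4. The closest of all was Nup107 to Tnfrsf10b, at 0.01. With 4 libraries of one group this describes shared level only.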

How the data were processed

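The 4 deposited tables hold raw counts per gene, 1 library each. Per the file headers, the authors ran featureCounts 1.4.6-p4 on read pairs over exons of GENCODE mouse release 13, for the reverse strand, keeping pairs with both ends aligned and setting no multimapping option. Per the labels, the build is mm10. The aligner and its version were not given in the sources used here. The labels call the assay total RNA-seq and link a protocol for poly(A)+ libraries.

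TPM was computed over all genes from these counts and the exon lengths in the tables. Gene symbols are from GENCODE mouse release 21 (50376 of 50600 genes matched by Ensembl identifier). No other annotated gene shared an exon base with any of the 10 genes. Library totals ran from 49613182 to 94222415 counts.

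Each of 17 gene pairs (11 fixed, 9 neighbours in the order, 3 of these in both) was tested on differences of log2(TPM + 1) by flipping signs over 16 patterns, exact and two-sided. The pseudocount of 1 shrinks differences of low genes. Spread between replicates was tested with edgeR 4.0.16 (R 4.3.3; TMM factors, filterByExpr, trended dispersion) as the deviance of an intercept-only fit, referred to chi-square with 3 degrees of freedom, because 1 group leaves no coefficient for the quasi-likelihood test. The script was tested on simulated data. Other software was Python 3.11.15 with numpy 2.4.6, scipy 1.17.1, pandas 2.3.3 and matplotlib 3.10.9.

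The 10 genes, the lists and the pairs were chosen with earlier results of these data known. Named genes are the 10, the 3 highest detected and all undetected genes of each pathway list, protein-coding neighbours within 50 kb, the 2 genes nearest in level, and the first and the detected genes of the marker lists. One gene that this rule names is not reported here. Tnfrsf23, Csf1r, Tia1, Rc3h2, Birc2, Traf2, Chuk and the sex-linked genes were picked with their values in view. Alternatives were other detection rules, DESeq2 1.42.0 size factors and dispersion outliers, other count filters, a common dispersion, other pseudocounts, TPM over protein-coding genes or with TMM factors, and leaving out each replicate. Principal transcript lengths and the division by Xist were added after seeing the data.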

Additional observations from a re-analysis of the deposited data

Results flagged for a closer look

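The difference of Fasl minus Fas in log2(TPM + 1) was 1.35 in replicate 1 and between 0.95 and 0.97 in the other 3 libraries, a gap that took most of the range. Fasl stood at 100.2 TPM and Fas at 38.7 TPM in that library. It was 1 of 27 values examined for a library far from the rest, and chance marks about 1 group in 20.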

How the results depend on the processing

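No paired analysis was possible because the labels give a single group. All 10 genes stayed detected at a TPM threshold of 0.5, a count of 10, a mean of 1 TPM, with principal transcript lengths and without any 1 replicate. At 5 TPM 9 did, Ltbr being the exception. Of the 17 pair differences, 16 kept their sign under every pseudocount, length and leave-one-out setting. Fas minus Tnfsf10, at 0.00 as reported, ran from -0.0888 to 0.11 when 1 replicate was left out and was 0.20 with principal transcript lengths, which also moved Ltb minus Tnfrsf10b to 0.55, against 0.16 as reported. With principal transcript lengths, added after seeing the data, the order of the 10 genes by mean level was as reported, with Lta at 257 TPM and Ltbr at 2.30 TPM. The levels themselves fell, all but those of Ltb and Ltbr by more than their SD over libraries. Tnf went from 248 to 173 TPM and Fasl from 93.9 to 65.8 TPM. TPM over protein-coding genes raised Fasl, Tnfrsf1a, Tnfrsf1b and Tnfrsf10b by more than that SD. The count of variable genes was 94, and 617 with a common dispersion, 43 as DESeq2 dispersion outliers and 38 to 87 without 1 replicate; the cause was not tested. None of the 10 genes was called variable in edgeR under any of these settings, the lowest adjusted p being 0.0603 for Ltbr with a common dispersion (0.0603 to 0.99994 over all settings), and for Tnf 0.126 without replicate 3 (0.126 to 0.9998). Depth limits the value of Ltbr, which rests on 74 to 156 counts per library.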
